A study of Mus musculus with 4 samples.

Results

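The genes described here are Nek4 and the other NIMA-related kinase genes measured by PRO-seq in mouse embryonic stem (mES) cells before and after removal of the zinc-finger protein Zfp574. Nek1, Nek2, Nek3, Nek4, Nek6, Nek7, Nek8 and Nek9 were selected by gene name, and they were 8 of the 12486 genes in the deposited count table. Nek4 itself was chosen for its fall in this same comparison, so its change is given as a description without a test. The other 7 genes were taken by family name. Nek5, Nek10 and Nek11 were not analysed here.

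NIMA-related kinases are serine/threonine kinases named after a fungal regulator of entry into mitosis. Vertebrate members divide their work between the centrosome and mitotic spindle (Nek2, Nek6, Nek7 and Nek9), the primary cilium (Nek1, Nek4 and Nek8) and the response to DNA damage (Nek1, Nek4 and Nek8). The cilium is built from a centriole, and it is taken apart before division, so the ciliary and mitotic kinases act on the same organelle at different times.

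PRO-seq extends nascent RNA with labelled nucleotides in isolated nuclei, and its counts report engaged RNA polymerase on a gene, not the amount of kinase mRNA or protein. All 4 libraries came from AID-Zfp574 cells, in which an auxin-inducible degron was fused to the N terminus of endogenous Zfp574 in a parental line that expresses the auxin receptor OsTir1 under an EF1a promoter. The 2 control libraries came from cells at 0 h without auxin, and the 2 depletion libraries came from cells kept for 6 h in 500 uM of the auxin indole-3-acetic acid (IAA). Both conditions therefore carried the tag, the receptor and the same originally haploid, now diploid cell background, and the cells grew without feeders in serum and LIF. No untagged line treated with auxin was analysed here, so removal of Zfp574 and any other action of auxin cannot be told apart.

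Library totals were 3298864 and 3616429 counts in the control and 6045216 and 5670904 in the depletion condition. In edgeR's quasi-likelihood test, 38 of 11853 tested genes (0.321%) were lower after depletion at an adjusted p under 0.05 and at least 2-fold, and 0 were higher (1919 genes had an unadjusted p under 0.05 in either direction). DESeq2 called 28 lower genes at the same thresholds and gave 499 genes an unadjusted p under 0.05. With no demand on fold, 166 were lower and 132 were higher in edgeR, and 61 were lower and 14 higher in DESeq2. The edgeR split was 202 and 64 with library totals and 698 and 49 with size factors recovered from the deposited comparison. It turned to 300 lower and 366 higher with the replicate number as a block and to 227 lower and 271 higher without control replicate 2. Counts of Zfp574 itself were 80 and 130 in control and 195 and 219 in depletion libraries (log2 fold change 0.25, SE 0.14, adjusted p = 0.406), a check that says nothing of the degron because it acts on the protein. Of 10 pluripotency markers, 7 were in the table, and Tdgf1, Dppa4 and Fgf4 were not. Those 7 summed to 4093 to 4158 CPM (counts scaled to a common library size with TMM) in control and 4164 to 4239 CPM in depletion libraries. Of 8 fibroblast markers, 0 were in the table. Of 7 markers each of primitive endoderm and trophectoderm, 3 each were in the table, and these summed to at most 15.3 and 20.3 CPM in any library.

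Nek4 lies on chromosome 14 of the mm10 build (chr14:30951377-30988821, plus strand, GENCODE M21) and encodes a kinase linked to the DNA damage response, replicative senescence and ciliary proteins of the RPGR complex. Its 250 bases upstream of the annotated start are printed because 1 word in it recurs at other genes that fell (in capitals). The run is chr14:30951127-30951376, plus strand, from RefSeq promoters on GRCm38.p6.
Nek4 promoter: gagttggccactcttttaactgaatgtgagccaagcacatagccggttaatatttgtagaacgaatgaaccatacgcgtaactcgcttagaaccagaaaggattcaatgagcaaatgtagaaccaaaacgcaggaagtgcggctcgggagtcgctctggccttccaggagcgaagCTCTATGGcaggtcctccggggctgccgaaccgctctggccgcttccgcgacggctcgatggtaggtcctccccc

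Nek4 held 51 and 48 counts at 0 h and 15 and 23 counts after depletion. Scaled to library size, the levels were 15.3 and 13.1 CPM against 2.52 and 4.09 CPM. Both depletion libraries thus lay well below both control libraries, although the depletion libraries were sequenced more deeply. The 95% exact Poisson intervals of the single libraries were 11.4 to 20.2 and 9.66 to 17.4 CPM in control and 1.41 to 4.16 and 2.60 to 6.14 CPM in depletion. These intervals cover counting error only.

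The mean Nek4 level was 14.2 ± 1.57 CPM (SD, n = 2) in control and 3.31 ± 1.11 CPM (SD, n = 2) in depletion, a ratio of 0.233. The fitted log2 fold change was -2.10 (SE 0.26), rank 9 among the falls of all tested genes. Nek4 was 1 of the 38 genes called at 2-fold, which is what chose it, and nothing is read from that call. At the edge of the 2-fold threshold stood Pars2 with a log2 fold change of -1.02 just inside and Srp68 with -0.99 just outside.

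**Figure D1:**
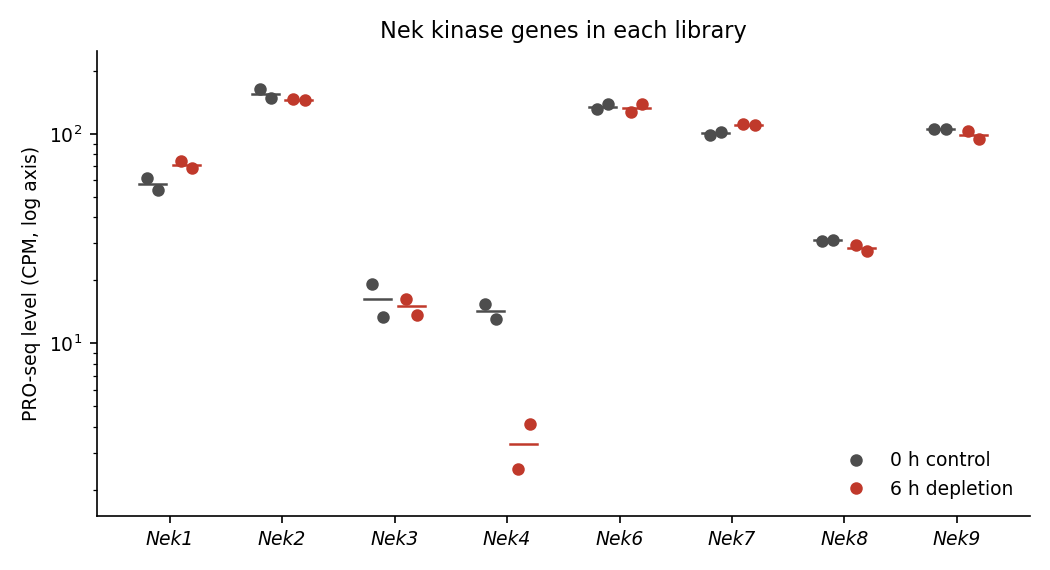
PRO-seq level in CPM (log axis) of the 8 Nek genes in each of the 2 control and 2 depletion libraries, 1 point per library. Nek4 falls from 15.3 and 13.1 CPM to 2.52 and 4.09 CPM, while the other 7 genes change by far less, Nek1 the most among them.

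The centrosomal and spindle kinases were described next. Nek2, which releases the linker between the centrosomes before mitosis, had 163.5 and 148.2 CPM in control and 146.3 and 144.9 CPM in depletion libraries (log2 fold change -0.10, SE 0.07, adjusted p = 0.523). Both depletion libraries lay just below the lower control library. Nek9, the upstream activator of Nek6 and Nek7 in mitosis, had 105.5 and 105.6 CPM against 103.3 and 94.5 CPM (log2 fold change -0.09, SE 0.08, adjusted p = 0.607). Its depletion libraries were also both below the controls, and the higher of them lay closer to the controls than to the other depletion library.

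Nek6 and Nek7 are short kinases, little more than a catalytic domain, that act downstream of Nek9 on spindle assembly. Nek6 had 131 and 138.6 CPM in control and 127.7 and 138.5 CPM in depletion libraries (log2 fold change -0.02, SE 0.07, adjusted p = 0.929), and the conditions overlapped. Nek7, which is also a partner of the NLRP3 inflammasome, had 99.2 and 102.6 CPM against 111.2 and 110.2 CPM (log2 fold change 0.13, SE 0.07, adjusted p = 0.399). Its depletion libraries were both higher than the controls, yet the difference did not pass the test. Leaving out control replicate 2 or depletion replicate 1 turned the sign of Nek6, whose values then were 0.02 and 0.04.

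Among the ciliary kinases, Nek1, whose loss causes polycystic kidneys in mice, had 61.9 and 53.8 CPM in control and 74.1 and 68.7 CPM in depletion libraries. The log2 fold change was 0.31 (SE 0.10, adjusted p = 0.0921), the largest change in either direction among the 7 genes other than Nek4. Both depletion libraries were above both controls, but the difference missed the threshold. It passed without control replicate 1 (0.41, adjusted p = 0.0377) and with the replicate number as a block (0.30, adjusted p = 0.0372), and its adjusted p ranged up to 1.00 over the alternatives.

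Nek8, a kinase of the inversin compartment at the base of the cilium, had 30.95 and 31.11 CPM in control and 29.4 and 27.6 CPM in depletion libraries (log2 fold change -0.12, SE 0.13, adjusted p = 0.700). Its depletion libraries were slightly lower, and the gap to the controls was about the size of the distance between the depletion libraries. Nek3, a cytoplasmic kinase studied in prolactin signalling and in neurons, had 19.2 and 13.4 CPM against 16.3 and 13.7 CPM (log2 fold change -0.11, SE 0.19, adjusted p = 0.844). Its conditions overlapped, and its log2 fold change was 0.17 without control replicate 1 and 0.01 without depletion replicate 2. Nek3 is the member whose level in control was nearest to that of Nek4 on the CPM scale, at 16.3 ± 4.14 CPM (SD, n = 2).

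Of the 7 members other than Nek4, 0 passed at an adjusted p under 0.05 in either direction in edgeR, in DESeq2 or in limma-voom, and 1 (Nek1) had an unadjusted p under 0.05. Over all tested genes 1.4% were lower and 1.11% higher at the adjusted threshold, and 16.2% had an unadjusted p under 0.05. The 7 log2 fold changes ran from -0.12 to 0.31 with a median of -0.09, against a median of -0.002 over all tested genes, and 5 of the 7 were below 0. No sign among the 7 changed under the other scalings of the libraries. Libraries of the conditions did not overlap for 5 of these 7 members, Nek1 and Nek7 higher and the others lower, where 46.3% of all tested genes did not overlap in either direction. With 2 libraries a condition, an absence of overlap is therefore common.

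**Figure D2:**
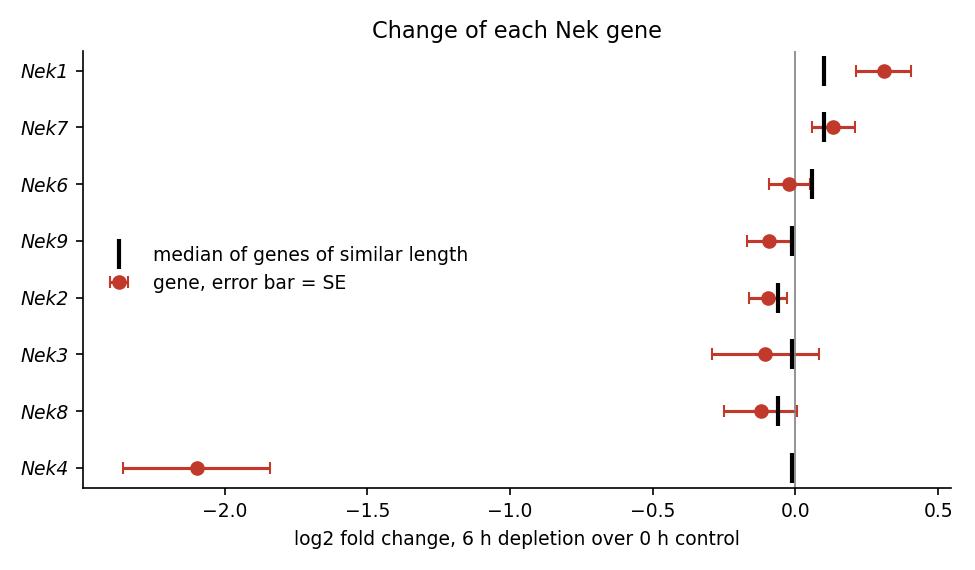
Fitted log2 fold change (6 h depletion over 0 h control) of each Nek gene, with bars of 1 SE and black marks for the median of genes of similar length. Nek4 stands at -2.10 and the other 7 genes between -0.12 and 0.31.

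The 2 members that were higher were also the longest. Nek1 spans 138.2 kb and Nek7 spans 137.3 kb, both in the longest of 10 classes of gene length, whose median log2 fold change was 0.10. Nek2 and Nek8, at 11.6 and 10.6 kb, lie in a class of short genes with a median of -0.06. Nek4, Nek3 and Nek9 are of like length (37.4, 38.2 and 39.8 kb), in classes with a median of -0.01, and Nek4 alone of these moved by over 2-fold. The part of length in the values of Nek1 and Nek7 was not tested.

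Levels were then ordered per length, as CPM per kb of annotated gene. In control libraries Nek2 was highest at 13.4 ± 0.931 CPM per kb (SD, n = 2 here and below), followed by Nek8 (2.94 ± 0.0107), Nek9 (2.65 ± 0.00246) and Nek6 (1.62 ± 0.0649). Nek7 (0.735 ± 0.0178), Nek3 (0.427 ± 0.109), Nek1 (0.419 ± 0.0417) and Nek4 (0.380 ± 0.0420) were lowest. The ranges of neighbours in this order overlapped for Nek3 with Nek1 and for Nek1 with Nek4, and were apart elsewhere. Nek4 had the lowest mean per kb before depletion, and its libraries overlapped those of both Nek1 and Nek3.

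After depletion the order was the same except that Nek1 (0.517 ± 0.0276 CPM per kb) stood above Nek3 (0.393 ± 0.0480). Nek4 was again lowest, at 0.0883 ± 0.0297 CPM per kb, and all neighbours in the order were apart, Nek3 and Nek4 included. Nek2 remained at the top at 12.5 ± 0.0883 CPM per kb. These levels divide by the annotated gene while polymerase paused near the start is counted too, so short genes gain most from it.

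The surroundings of Nek4 were compared as a local reference. The nearest measured genes downstream, Spcs1 (11.01 kb away, opposite strand, a subunit of the signal peptidase) and Glt8d1 (12.6 kb away, same strand, a glycosyltransferase), had log2 fold changes of 0.25 (SE 0.28, adjusted p = 0.719) and -0.39 (SE 0.19, adjusted p = 0.311). Counts of Glt8d1 were 45 and 61 in control and 72 and 62 in depletion libraries, which is 13.5 and 16.6 CPM against 12.1 and 11.03 CPM. Both depletion libraries of Glt8d1 were thus lower, by far less than those of Nek4. Spcs1 and Glt8d1 overlap each other on opposite strands, and the counting used strand.

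Gnl3, a nucleolar GTPase of stem cells 23.6 kb downstream, had a log2 fold change of -0.09 (SE 0.07, adjusted p = 0.569). Upstream, Mustn1 (69.8 kb away) had 0.08 (SE 0.31, adjusted p = 0.942), Stimate (74.2 kb away, a regulator of store-operated calcium entry) had -0.03 (SE 0.08, adjusted p = 0.886), and the Polycomb-associated Sfmbt1 (129 kb away) had 0.20 (SE 0.07, adjusted p = 0.151). None of these 6 genes passed in edgeR, DESeq2 or limma-voom, and Sfmbt1 had an unadjusted p under 0.05 in edgeR. Mustn1 and Spcs1 held at most 41 counts in a library, so moderate changes were not detectable there. No gene of the table starts within 1000 bases upstream of Nek4 on the other strand. Nek8 alone has such a divergent partner, Tlcd1, whose start lies 36 bases away and whose log2 fold change was -0.14 (SE 0.14, adjusted p = 0.677), close to that of Nek8.

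**Figure D3:**
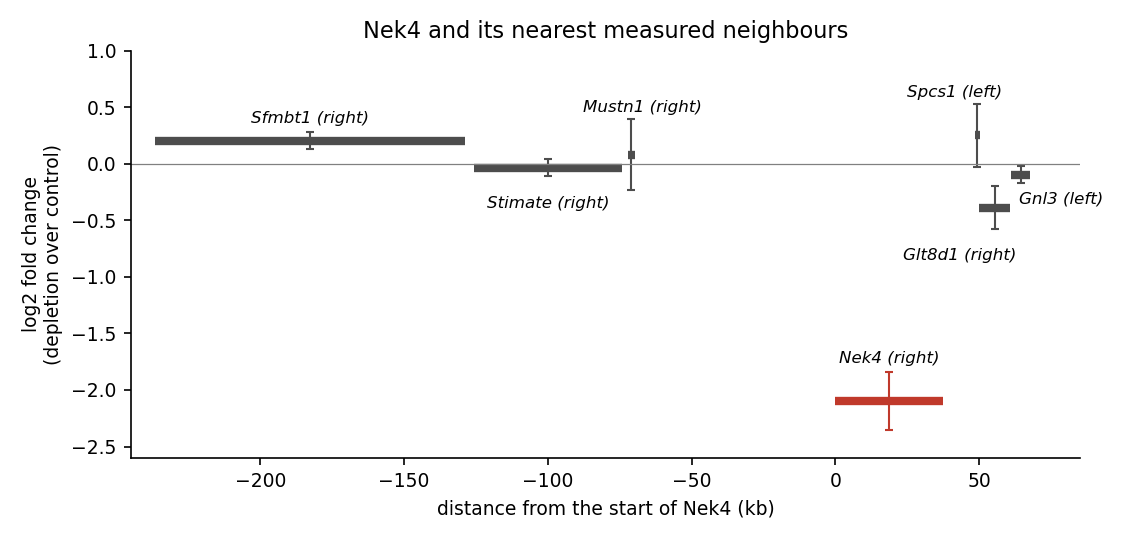
Log2 fold change (depletion over control) of Nek4 and its 3 nearest measured genes on each side, against distance from the start of Nek4 in kb, with thick bars for the span of each gene, its direction of transcription in brackets and vertical bars of 1 SE. Nek4 stands at -2.10 and its neighbours between -0.39 and 0.25.

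The genes with the pattern most like that of Nek4 over the 4 libraries were found by the Euclidean distance between centred log2(CPM + 0.5) values. They were Jagn1 (distance 0.217), 2810403D21Rik (0.367), Timm10 (0.372), Elac1 (0.477) and Eef1akmt2 (0.499). Jagn1, an endoplasmic reticulum protein of the secretory route, went from 23.1 and 20.2 CPM to 4.54 and 5.70 CPM. Timm10, a chaperone of protein import into mitochondria, went from 16.2 and 16.1 CPM to 4.03 and 4.80 CPM. Elac1, an endonuclease that trims tRNA, had 18 and 22 counts in control and 7 and 7 in depletion libraries. The fitted log2 fold changes of these genes ran from -2.30 (Eef1akmt2) to -1.68 (2810403D21Rik). They were picked for likeness in the same libraries, so no test applies.

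Genes that work with the Nek kinases, or that only share a process or organelle with them, were taken as 9 lists of 160 genes. Of these, 140 were tested. In edgeR 1 of the 140 (0.714%) was lower and 1 (0.714%) was higher at an adjusted p under 0.05, 0 at 2-fold, and 29 (20.7%) had an unadjusted p under 0.05. The corresponding shares of all genes were 1.4%, 1.11% and, at the unadjusted threshold, 16.2%. With TMM scaling, which placed the median of all genes at -0.002, the 140 log2 fold changes had a median of -0.03. Under that scaling 8 of the 9 list medians lay within 0.1 of no change. DESeq2 called 0 of the 140, and 3.57% of them had an unadjusted p under 0.05, beside 4.21% of all genes. In limma-voom 1 was lower and 2 were higher. The size factors recovered from the deposited table gave 11 lower and 2 higher, beside the 698 and 49 over all genes. The median of all genes was then -0.11, and the list medians ran from -0.47 (inflammasome partners) to -0.08 (intraflagellar transport).

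For the centrosome linker and the partners of Nek2, 0 of 17 tested genes passed (6 at an unadjusted p under 0.05), with a median of -0.0003. Rootletin, Crocc, a fibre protein that Nek2 phosphorylates, was lowest at -0.21 (adjusted p = 0.603). Cdk5rap2, which anchors gamma-tubulin at the centrosome, was highest at 0.43 (adjusted p = 0.0622), but its control libraries differed widely (1331 and 717 CPM, against 1367 and 1397 CPM in depletion libraries).

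For the spindle assembly cascade of Nek9, Nek6 and Nek7, 0 of 27 genes passed (2 at an unadjusted p under 0.05), with a median of -0.10. Values ran from -0.35 for the gamma-tubulin complex protein Mzt2 (adjusted p = 0.363) to 0.59 for the microtubule-binding Eml3 (adjusted p = 0.141). Plk1, the kinase upstream of Nek9, had -0.12 (adjusted p = 0.819). Of the 13 other mitotic kinases, 0 passed (7 at an unadjusted p under 0.05), also with a median of -0.10. Their extremes were Aurkb, the kinase of the chromosomal passenger complex (-0.59, adjusted p = 0.158), and the checkpoint kinase Bub1 (0.31, adjusted p = 0.0983).

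Medians of the ciliary lists were near no change as well. Such a median can hold single genes that differ in both directions, and 16.2% of all tested genes had an unadjusted p under 0.05. Of 13 listed genes of the inversin compartment and nephronophthisis proteins, linked to Nek8, 8 were tested. Inversin itself (Invs), Anks6, Bicc1, Ttc21b and Wdr19 were not tested, so the core of this compartment was not measured. Of the 8 genes, 0 passed (3 at an unadjusted p under 0.05, median -0.001), and Dzip1l was highest at 0.38 (adjusted p = 0.155). For the transition zone, the gate at the base of the cilium, 0 of 15 passed (3 at an unadjusted p under 0.05; median -0.01), from B9d1 at -0.63 (adjusted p = 0.137) to Tmem107 at 0.21 (adjusted p = 0.887). Rpgrip1, a partner of Nek4, had a log2 fold change of 0.07 (adjusted p = 0.859). For the BBSome, the adaptor of ciliary cargo, 0 of 12 passed (1 at an unadjusted p under 0.05; median 0.005), from Bbs12 at -0.32 (adjusted p = 0.330) to Lztfl1 at 0.42 (adjusted p = 0.640).

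Of 25 intraflagellar transport genes, 1 was lower and 0 higher (3 at an unadjusted p under 0.05), with a median of 0.02. Traf3ip1, which encodes an adaptor of the transport train, had 39.7 and 41.2 CPM in control and 31.1 and 28.7 CPM in depletion libraries. Both depletion libraries were lower, and the log2 fold change was -0.44 (SE 0.12, adjusted p = 0.0439). The call was lost in DESeq2 (adjusted p = 0.988) and without each library in turn: 0.0717 without control replicate 1, 0.127 without control replicate 2, 0.156 without depletion replicate 1 and 0.322 without depletion replicate 2. Ift81, a core subunit of the train, was highest at 0.63 (adjusted p = 0.442).

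Of 19 DNA damage genes linked to Nek1, Nek4 and Nek8, 0 were lower and 1 was higher (3 at an unadjusted p under 0.05), with a median of -0.05. Rad1, a subunit of the checkpoint clamp that loads at damaged DNA, had 69.1 and 66.1 CPM in control and 91.7 and 91.7 CPM in depletion libraries. Both depletion libraries were higher, and the log2 fold change was 0.44 (SE 0.08, adjusted p = 0.00203), although DESeq2 did not call it (adjusted p = 0.172). Lig4, the ligase of end joining, was lowest at -0.28 (adjusted p = 0.724), and Prkdc, the catalytic subunit of DNA-PK to which Nek4 has been linked, had 0.14 (adjusted p = 0.214). Of 4 tested inflammasome partners of Nek7, 0 passed (1 at an unadjusted p under 0.05), from the adaptor Pycard at -0.52 (adjusted p = 0.440) to the sensor Nlrp3 at 0.23 (adjusted p = 0.238). The median of these 4, -0.36, rests on few genes, of which Nlrp3 alone had a mean count of 100 or more.

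**Figure D4:**
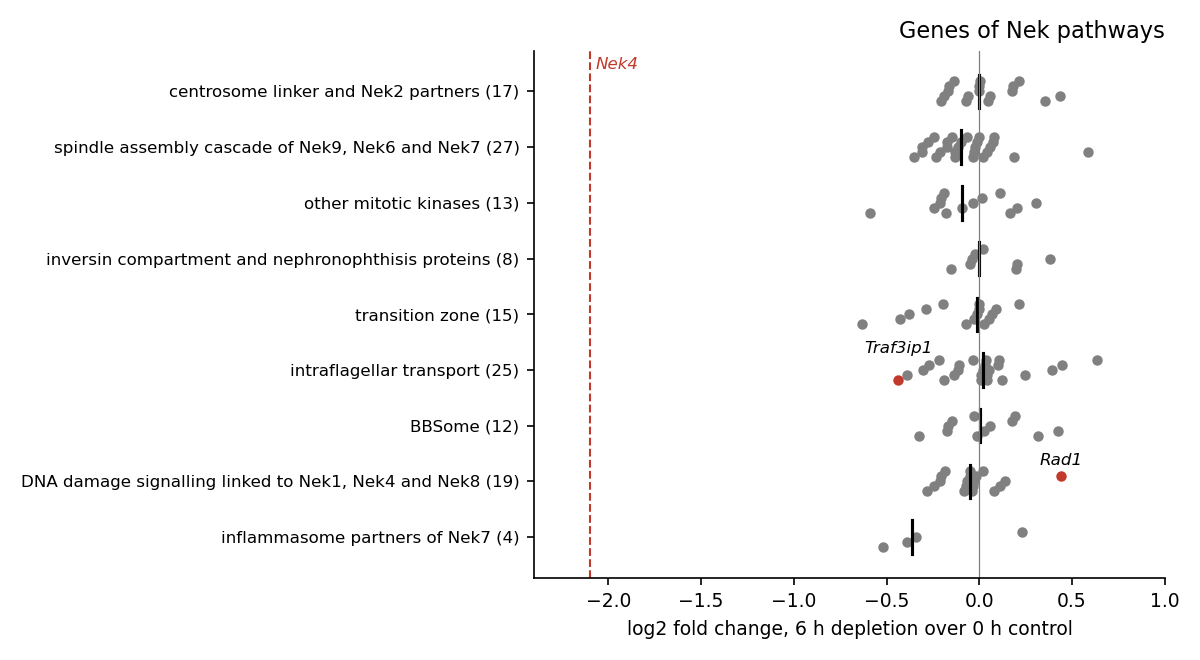
Log2 fold change (depletion over control) of each tested gene in 9 lists of Nek pathway genes, with the number tested in brackets, black bars for list medians, red points for called genes and a dashed line for Nek4. 138 of the 140 genes were not called, and Traf3ip1 (-0.44) and Rad1 (0.44) are the exceptions.

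The Nek4 promoter was then searched for sequence that recurs at the other called genes. RefSeq promoters on GRCm38.p6, from 250 bases before to 50 after the start, were matched for 9333 tested genes, for 34 of the 38 called genes and for 7 of the 8 members. The promoters of a single chromosome were left out before matching, so a gene without a match may still have an annotated promoter. All 281 words of 8 bases in the Nek4 promoter were counted on both strands, leaving out Nek4. The word in the most other called promoters was CTCTATGG (CCATAGAG on the other strand), in 9 of 33 (27.3%), against 123 of all 9333 promoters (1.32%). The next were GGTCCTCC, which also has 2 copies at Nek4, in 5 of 33 (15.2%) against 2.74% of all, and AGGAAGTG, in 5 of 33 against 4.57% of all. The word was picked as the most frequent among called genes, so these shares are a description.

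Nek4 holds the word at 2 places, both on its coding strand. The copy 75 bases before the start (chr14:30951302-30951309) lies upstream of the start of all 5 annotated coding transcripts. The copy 36 bases after the start (chr14:30951413-30951420) lies in the first exon, in untranslated sequence, of 2 coding transcripts, and 3 start further on. Stretches around each copy at Nek4 and the 9 other called genes are shown for comparison of the shared letters and those beside them. The word is in capitals, and each stretch is written in the direction of the word. The place given is that of the most upstream base of the word, relative to the start of the gene. In Zkscan8, Ercc1 and Chpf2 the word lies on the opposite strand, so this base is its last one as printed.
Nek4, -75: aggagcgaagCTCTATGGcaggtcctccgg
Nek4, 36: gctaggtcgaCTCTATGGcgcgtc
Xrn1, -14: ccacggtttgCTCTATGGtctggcggacct
Zkscan8, -41: ggtctgacagCTCTATGGtaggccagcaaa
Rpl10, -22: ctggctgtaaCTCTATGGttgttacagtgg
Ercc1, -51: tcgcgctgctCTCTATGGtcctggaggacc
Timm10, -59: aggtcggtttCTCTATGGtagccggtttcc
Polq, -71: tccctcaccaCTCTATGGtagtcgggttat
Eef1akmt2, 10: caaatcgcgtCTCTATGGcggcttcgagcg
Trip11, 21: cgcgaagcttCTCTATGGtcactgccgctt
Chpf2, -78: tacagtcgctCTCTATGGttgctgctgcac
Chpf2, -35: agtctcccgtCTCTATGGtgaccgcatccg

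By the place of this base, all copies lay between 78 bases before and 36 bases after the start. Of the 10 copies at the other genes, 9 were followed by T and 6 lay on the strand of the gene, whereas both copies at Nek4 were followed by C. Timm10 and Eef1akmt2, which hold the word, were also among the genes nearest to Nek4 in pattern. The word and the nearest genes were both picked through falls in these libraries, so nothing is read from that. Of the 8 Nek promoters in the table, 2 of them for Nek6, only that of Nek4 held the word, which says only that these letters are not in the windows of Nek2, Nek3, Nek6, Nek7, Nek8 and Nek9. The Nek4 promoter was not set apart in composition, with 56.3% G and C against a median of 61.0% over all tested promoters, and with 23 CpG against 21. Nek3 was poorer in both, at 38.7% and 1 CpG, and the 2 entries of Nek6 were richer, at 71.3% and 82.0% with 36 and 56 CpG.

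The 113 genes that held the word but were not called at 2-fold were not used to pick it, but they were measured in the same libraries. They were not matched to genes without the word for gene length or promoter composition, and no test was made. Their median log2 fold change was -0.10, and 74 of them (65.5%) were below 0, against a median of -0.004 and 50.9% below 0 for genes without the word. At least 2 copies were held by 8 promoters (0.0857%), and their genes ran from Nek4 at -2.10 and Chpf2 at -1.20 to Hdlbp at 0.08 and Zfp142 at 0.18. The 8 genes thus took values on both sides of 0. Of 119 genes of the Nek pathway lists with a promoter entry, 3 held the word (2.52%), and they were Ppp1cc (-0.17), Tmem216 (-0.43) and Rad1 (0.44), the last of which was higher after depletion.

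**Figure D5:**
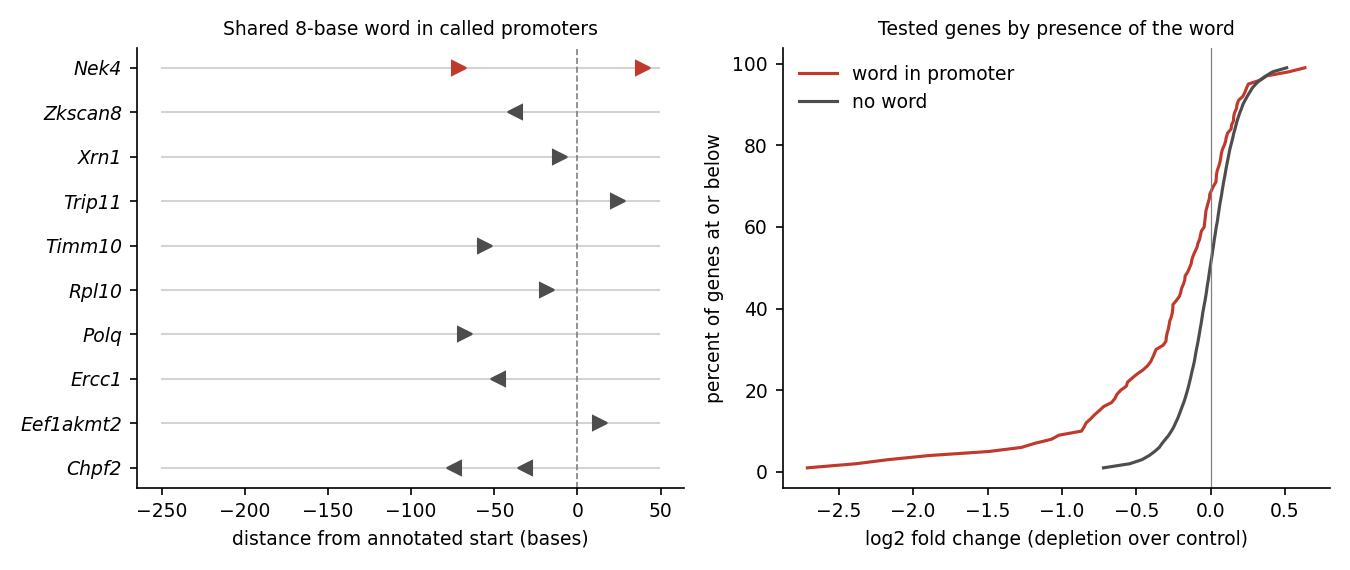
Left, place of each copy of the shared 8-base word relative to the annotated start (bases) in Nek4 and 9 other called genes; right, percent of tested genes at or below each log2 fold change, with and without the word in the promoter. All copies lie from -78 to 36, and the line of the 123 genes with the word, which include Nek4 and the 9 genes that picked it, lies to the left at the median (-0.14 against -0.004) and crosses the other near its top.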

How the data were processed

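PRO-seq was measured in 4 libraries of AID-Zfp574 mES cells, 2 biological replicates per condition, grouped by labelled treatment. The authors trimmed adapters with cutadapt 1.18, mapped reads to mm10 with Bowtie 1.2.2, kept unique alignments and collapsed them by molecular identifier, so near-identical genes are undercounted. The deposited counts are whole numbers of nascent RNA 3′ ends per gene, on its strand, over an Ensembl gene set with CAGE-corrected starts, and are not normalized. The mean normalized signal that the authors deposited with their DESeq2 comparison was used only to recover size factors, and their fold changes and p-values were not used. Spike-in counts were not used here.

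Genes were filtered with filterByExpr (minimum count 10, minimum total 15; 11853 of 12486 kept, all 8 members included), scaled with TMM and tested with edgeR 4.0.16 in R 4.3.3 (glmQLFit, glmQLFTest, two-sided, condition only), with Benjamini-Hochberg adjustment over all tested genes. DESeq2 1.42.0 and limma 3.58.1 (voom) were alternatives. The SE is that implied by the F statistic. Scripts were tested on simulated data. GENCODE M21 gave positions for 12474 identifiers. Replicates differed by more than sampling noise (chi-square per degree of freedom 1.85 in control, 1.49 in depletion). The genes and lists were chosen with earlier results of these data known. Named genes were the members, divergent partners within 1000 bases, the 3 nearest genes on each side of Nek4, the called or extreme genes of each list, the 5 genes nearest to Nek4 in pattern and Zfp574. A gene under this rule is not reported here. Other list genes (Plk1, Rpgrip1, Prkdc), the genes at the fold threshold and the genes holding the promoter word were named after their values were seen.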

Additional observations from a re-analysis of the deposited data

How the results depend on the processing

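Nek4 was tested under 12 alternatives and had a log2 fold change of -2.20 to -2.10 where all libraries were used and -2.48 to -1.78 with 1 library left out (a lone library is then assumed to vary like the other condition); a mean count of at least 100 leaves it out. Genes lower at 2-fold numbered 8 with that filter and 166 without the fold threshold. Genes higher at 2-fold numbered 1 with the likelihood ratio test, 1 with the replicate block, 1 to 8 with a library left out (8 without control replicate 2) and 132 without the fold threshold. The recovered size factors moved the median of all genes to -0.11. Leaving out 1 library gave Nek3 -0.35 to 0.17 (0.17 without control replicate 1, 0.01 without depletion replicate 2) and Nek6 -0.079 to 0.040 (0.021 without control replicate 2, 0.040 without depletion replicate 1). The leading word of the Nek4 promoter changed with word length. At 6 bases it was CGCTCT, in 60.6% of other called promoters (24.3% of all). At 10 bases it was CGCTCTGGCC, in 6.06% (0.311% of all). Neither contains CTCTATGG or is contained in it. Replicate differences in the control and depletion conditions had a correlation of 0.03 over all tested genes. Counting noise of genes with low counts enters this value, so it does not settle whether replicate numbers pair the samples. The replicate block called 43 genes lower, and among the members only Nek1 gained a call (0.30, adjusted p = 0.0372). Nek4 rests on 15 and 23 counts after depletion, and depth also limits Nek3, Glt8d1, Spcs1 and Mustn1. Among the extreme genes of the lists, counts were lower still for Tmem107 (5 to 16 in a library), Ift81 (7 to 28) and Lztfl1 (8 to 31). Their log2 fold changes have SE of 0.50, 0.38 and 0.38.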
